A study of Mus musculus with 20 samples.

Results

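The 36 genes described here underlie inherited hearing loss. They were taken from a fixed list of deafness genes, most of which act in hair cells or in the cochlear epithelium, and all 36 were found among the 21887 protein-coding genes in the RefSeq table used (GRCm38.p6, which shares its main chromosomes with mm10). For each gene, the deposited peaks were counted over a window made of the annotated gene plus 10 kb on each side. The genes fall into 8 groups by role: 8 build the links of the hair bundle and the Usher complex, 4 belong to the mechanotransduction channel complex, 8 to the actin core, rootlet and surface coat of the stereocilia, 2 to the synapse and the motor of hair cells, 5 to the tectorial and otoconial matrices, 5 to gap junctions and ion transport, 2 to epithelial junctions and proteolysis, and 2 encode transcription factors.

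The data are CUT&Tag libraries, in which an antibody tethers a transposase to its target so that the neighbouring DNA is cut out and sequenced. All libraries came from mouse embryos of strain C57BL/6J at E11.5, with no other allele or treatment named, and from tissue labelled CVG, the usual abbreviation for the cochleovestibular ganglion that holds the young auditory and vestibular neurons. Peak lists of 14 of the 20 libraries were analysed: ISL1 as 2 groups, ISL1_26 (n = 1) and ISL1_70 (n = 3), read here as 4 libraries of 1 target, POU4F1 (n = 2), H3K4me3 (n = 2), H3K27me3 (n = 3) and H3K27ac (n = 3). The groups IgGR (n = 3) and IgGM (n = 3) were not analysed here, so no level of background is shown. What the numbers 26 and 70 stand for is not explained, nor whether the libraries within a group were made from different embryos. ISL1 and POU4F1 are homeodomain transcription factors of the sensory neurons of the ear.

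Hair cells turn sound and head movement into electrical signals with a bundle of actin-filled stereocilia, whose tips are joined by links that pull on transduction channels. Supporting cells and the stria vascularis keep the surrounding fluid rich in potassium through gap junctions, channels and anion exchangers, and the tectorial membrane couples the bundles to the motion of the cochlea. Neurons of the ganglion innervate the hair cells later in development and are not known for building a bundle themselves. H3K4me3 marks promoters, H3K27ac marks active promoters and enhancers, and H3K27me3 is laid down by Polycomb complexes over genes held silent, often at promoters rich in the dinucleotide CpG.

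Promoter sequences are printed for 6 of the genes, as examples of starts under H3K27me3, under H3K27ac or under both. Each is the 250 bases before the annotated start in RefSeq (GRCm38.p6), written from 5′ to 3′ on the strand of the gene, with every CpG in capitals. The Gjb2 promoter (chr14:57104703-57104952, minus strand, 18 CpG) was overlapped by peaks of all 3 H3K27me3 libraries and of H3K27ac replicates 2 and 3. The Espn promoter shown (chr4:152152390-152152639, minus strand, 11 CpG), 1 of 3 annotated for this gene, lay under peaks of all 3 H3K27me3 libraries and of H3K27ac replicate 1. The Slc26a4 promoter (chr12:31559985-31560234, minus strand, 4 CpG) carried all 3 H3K27me3 libraries and no H3K27ac. The Whrn promoter (chr4:63495992-63496241, minus strand, 21 CpG) carried H3K27me3 replicates 2 and 3 together with both H3K4me3 libraries. The library labelled H3K4me3 replicate 1 also had a peak over the Gjb2, Espn and Slc26a4 promoters. The Otog promoter (chr7:46240737-46240986, plus strand), which holds no CpG, was overlapped by H3K27ac replicates 2 and 3 and by no other library. The Myo6 promoter (chr9:80164784-80165033, plus strand, 18 CpG) was overlapped by 7 libraries. These were ISL1_26 replicate 1, ISL1_70 replicate 1, POU4F1 replicate 1, H3K4me3 replicate 2, H3K27me3 replicate 1 and H3K27ac replicates 2 and 3.
Gjb2: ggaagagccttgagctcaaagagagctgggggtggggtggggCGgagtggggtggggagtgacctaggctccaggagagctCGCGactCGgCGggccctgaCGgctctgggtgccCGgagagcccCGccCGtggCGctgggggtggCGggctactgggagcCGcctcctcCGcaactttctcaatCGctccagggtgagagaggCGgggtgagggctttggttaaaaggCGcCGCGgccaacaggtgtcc
Espn: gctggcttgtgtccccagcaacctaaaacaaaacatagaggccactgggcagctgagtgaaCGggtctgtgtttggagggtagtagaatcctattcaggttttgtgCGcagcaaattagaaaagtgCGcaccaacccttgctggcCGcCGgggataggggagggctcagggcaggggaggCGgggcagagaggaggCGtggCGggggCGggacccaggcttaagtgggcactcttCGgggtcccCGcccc
Slc26a4: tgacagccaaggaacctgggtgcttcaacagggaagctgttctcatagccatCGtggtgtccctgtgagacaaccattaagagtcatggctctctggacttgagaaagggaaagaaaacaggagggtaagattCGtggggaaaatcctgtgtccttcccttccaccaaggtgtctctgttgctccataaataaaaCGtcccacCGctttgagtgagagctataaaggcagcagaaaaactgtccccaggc
Whrn: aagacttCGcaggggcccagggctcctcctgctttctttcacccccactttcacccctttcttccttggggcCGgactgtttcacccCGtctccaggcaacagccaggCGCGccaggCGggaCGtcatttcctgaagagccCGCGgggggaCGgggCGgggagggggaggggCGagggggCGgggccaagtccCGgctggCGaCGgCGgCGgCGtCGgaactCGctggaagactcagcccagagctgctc
Otog: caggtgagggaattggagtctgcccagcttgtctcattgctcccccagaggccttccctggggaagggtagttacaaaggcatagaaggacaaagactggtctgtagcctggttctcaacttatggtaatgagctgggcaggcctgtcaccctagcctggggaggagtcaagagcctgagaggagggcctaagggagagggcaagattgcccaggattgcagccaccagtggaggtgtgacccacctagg
Myo6: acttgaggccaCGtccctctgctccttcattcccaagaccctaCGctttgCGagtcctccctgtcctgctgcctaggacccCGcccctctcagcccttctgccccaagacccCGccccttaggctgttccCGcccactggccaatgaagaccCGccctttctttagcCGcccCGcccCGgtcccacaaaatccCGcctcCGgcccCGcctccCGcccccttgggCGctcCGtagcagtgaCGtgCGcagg

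The lists hold from 8855 peaks (H3K27ac replicate 1) to 168144 (H3K27ac replicate 3). The sequencing depth behind each list is unknown, so differences in the number of peaks between libraries may be differences in depth. Peaks in the lists have a −log10 q of 1 or more. The library labelled H3K4me3 replicate 1 differs from replicate 2. Of the 57 replicated H3K27me3 regions in the windows of the deafness genes, 48 (84.2%) overlapped one of its peaks, against 4 (7.02%) for H3K4me3 replicate 2; over all genes the shares were 88.0% and 21.6% of 8765 regions. Of 15 housekeeping genes, 12 had a peak of H3K4me3 replicate 2 at the start (40.5% of all genes). None had a region of both H3K4me3 libraries there (7.39% of all genes). The label of H3K4me3 replicate 1 is thus in doubt, so H3K4me3 is given for each library, and a region of both H3K4me3 libraries is no replicate of that mark. In H3K27me3 replicate 1, peaks lay close to that limit: 22 of the 36 genes had a peak in the window, but 7 had one with a −log10 q of at least 2 (21.1% of all genes, from 49.9%).

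The labelled tissue was checked against marker lists. At the starts of all genes, the shares were 46.8% for replicated H3K27ac, 19.6% for replicated H3K27me3 and 40.5% for H3K4me3 replicate 2. Of 12 sensory neuron markers, 11 had replicated H3K27ac at the start and 11 had a peak of H3K4me3 replicate 2 there. Replicated H3K27me3 was at the start of 10 of them. Of 10 otic epithelium markers, 8 had H3K27ac and 7 had H3K27me3. Of 6 hair cell markers, 3 had H3K27ac, all 6 had H3K27me3 and none had a peak of H3K4me3 replicate 2. H3K27ac was at the start of 3 of 6 markers of glia and neural crest, of none of 6 mesenchyme markers and of 2 of 5 markers of endothelium and blood; the corresponding counts for H3K27me3 were 4, 6 and 2. The H3K27ac counts for the markers of hair cells, of glia and neural crest, and of endothelium and blood are near the share over all genes. Because a ganglion is a mixture of cells, marks of different cells cannot be told apart at one gene.

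The deafness genes are long, with a median of 63.3 kb against 17.2 kb over all protein-coding genes, and a range from 6.1 kb (Gjb2) to 1.55 Mb (Pcdh15). A long window collects more peaks by its size alone. Each count is therefore set beside the share over all genes and beside the count that all genes would give at the lengths of these 36 (the length-standardised count). No p-value is given, since the genes were chosen with results of these data known.

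**Figure D1:**
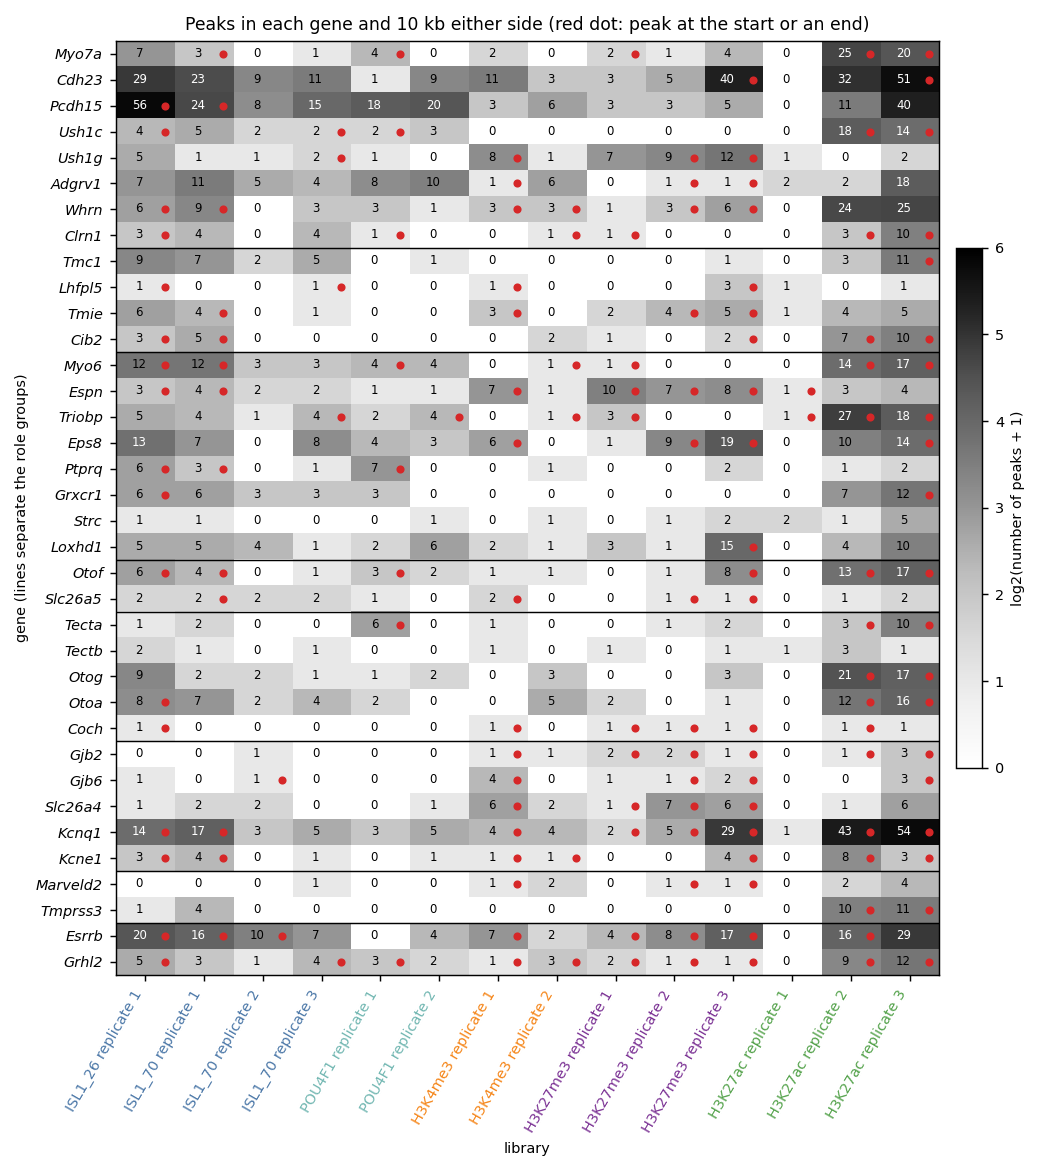
Number of peaks in the window of each deafness gene (rows, grouped by role) in each of the 14 libraries (columns); grey shade gives log2 of the number plus 1, and a red dot marks a peak within 1 kb of an annotated start, or of an end where no start was available. Pcdh15, Cdh23 and Kcnq1 hold the most peaks, Tmprss3 has peaks in 4 libraries, and Espn and Kcnq1 have peaks in all 14.

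ISL1 peaks were common in the windows, about as common as the lengths of the genes give. ISL1_26 replicate 1 had a peak at 34 genes (76.9% of all genes; length-standardised count 32.3), ISL1_70 replicate 1 at 31 (75% of all genes; 31.7), ISL1_70 replicate 2 at 20 (41.7%; 21.0) and ISL1_70 replicate 3 at 28 (55.4%; 25.8). A region with peaks of at least 2 ISL1 libraries, called replicated here, lay in the windows of 18 of 36 genes, against 38% of all genes and a length-standardised count of 19.2. Without ISL1_26 replicate 1 the count was 11 (19.9% of all genes), and without ISL1_70 replicate 1 it was also 11 (21.0%). The 18 genes with a replicated region had a median length of 80.5 kb, against 48.4 kb for the other 18. By role, such a region was found at 6 of 8 hair bundle and Usher genes, 3 of 4 transduction channel genes, 4 of 8 stereocilia genes, 3 of 5 matrix genes, 1 of 2 synapse and motor genes and 1 of 2 transcription factor genes, and at none of the 5 gap junction and transport genes or the 2 junction and protease genes.

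The windows held 44 replicated ISL1 regions. Of these, 41 (93.2%) lay inside a gene and 7 (15.9%) within 1 kb of a gene start, where the shares among 13488 such regions of all genes were 86.7% and 22.4%. Peaks of 2 ISL1 libraries made 33 of them, peaks of 3 made 9 and peaks of all 4 made 2. Replicated H3K27ac overlapped 17 of the 44 (38.6%), against 53.7% over all genes, and replicated H3K27me3 overlapped 5 (11.4%, against 8.96%). At the start itself, 6 of the 36 genes had a replicated ISL1 region (14.7% of all genes; length-standardised count 6.65): Pcdh15, Ush1g, Cib2, Myo6, Otof and Esrrb.

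Cdh23, which encodes the upper part of the tip link, had the most replicated ISL1 regions, 9 over 394 kb. Its window held 29, 23, 9 and 11 peaks of ISL1_26 replicate 1 and ISL1_70 replicates 1, 2 and 3. None of the 9 regions lay at the start; 5 overlapped a peak of H3K27ac replicate 2 or 3. A region at chr10:60558095-60559394 had peaks of all 3 ISL1_70 libraries and of no other library. Pcdh15, the lower part of the tip link, had 6 replicated ISL1 regions from 56, 24, 8 and 15 peaks, and supplied between 11.9% and 25.0% of all factor peaks found in the 36 windows. Its region at chr10:74502680-74503844, 681 kb from the nearest annotated start, had peaks of all 4 ISL1 libraries and of H3K27ac replicate 2. Its annotated start (promoter chr10:73821617-73821866, plus strand) is inside the gene, which begins at chr10:73096277. That start lay under a region of ISL1_26 replicate 1 and ISL1_70 replicate 1 with no peak of a histone library. The outer end was not tested as a start. Near it lay the best peaks of H3K27me3 replicate 2 (chr10:73098111-73100828) and replicate 3 (chr10:73097844-73102540), and of the library labelled H3K4me3 replicate 1. Replicated H3K27me3 covered 5.81 kb of the window in 2 regions.

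Among the channel genes, Tmc1, which encodes a pore subunit of the transduction channel, had 3 replicated ISL1 regions from 9, 7, 2 and 5 peaks, none of which overlapped a histone mark. Tmie, an accessory subunit of that channel, had 2 within its body, at chr9:110872235-110873734 and chr9:110874148-110875452, and both overlapped H3K27ac; the former also overlapped all 3 H3K27me3 libraries. Cib2, a calcium-binding partner of the channel, had 1 at its start. Lhfpl5, another subunit, had single peaks of ISL1_26 replicate 1 and ISL1_70 replicate 3 at its start that did not overlap, and it had no replicated region of any target. Ptprq, a phosphatase of the stereocilia surface, was the other gene with none.

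Esrrb and Myo6 show the patterns side by side. Esrrb, an orphan nuclear receptor needed by the stria vascularis, had 20, 16, 10 and 7 ISL1 peaks that formed 5 replicated regions, 1 of them at its upstream start. The same start carried H3K27me3 replicates 2 and 3, and a second start lay inside a block of 9.63 kb of H3K27me3 seen in all 3 libraries. Myo6, an actin motor at the base of the stereocilia, had 12, 12, 3 and 3 ISL1 peaks in 3 replicated regions, with H3K27ac at the start and no replicated H3K27me3. Esrrb also had 6 replicated H3K27ac regions (4.56 kb), none of them at a start, and Myo6 had 5 (4.43 kb). Of the H3K27ac libraries, replicate 2 alone had a peak over both Esrrb promoters. Both genes are long, at 161 and 147 kb.

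**Figure D2:**
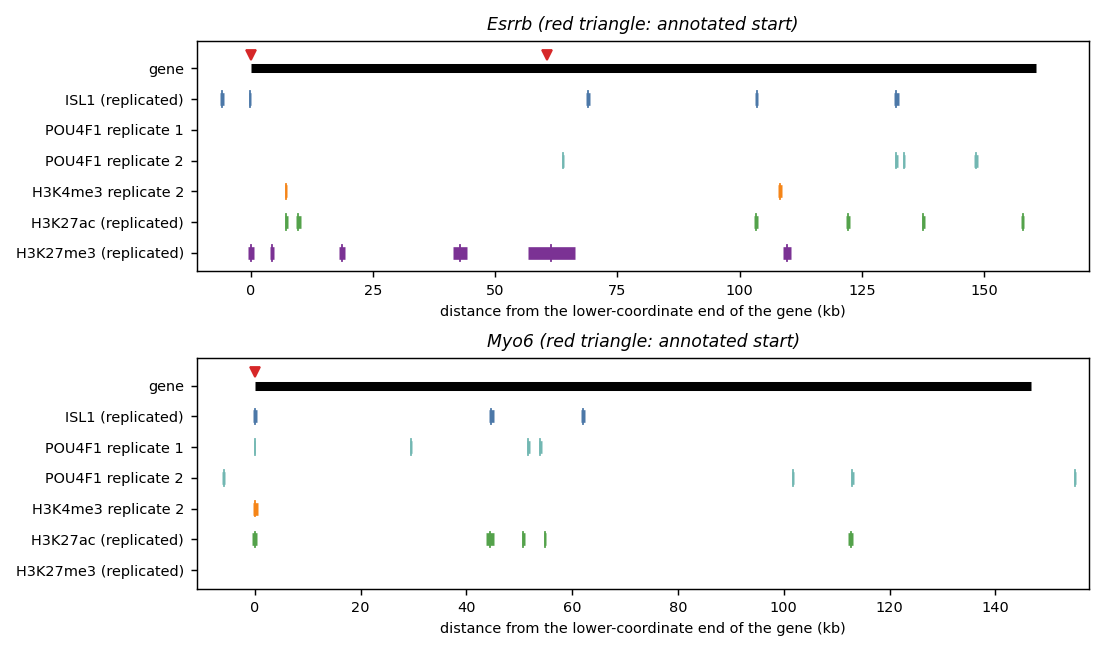
Map of Esrrb (top) and Myo6 (bottom), in kb from the lower-coordinate end of each gene, with replicated regions of ISL1, H3K27ac and H3K27me3 and single peaks of POU4F1 replicates 1 and 2 and H3K4me3 replicate 2; red triangles are annotated starts. Esrrb has 5 ISL1 regions, 6 H3K27ac regions and 6 H3K27me3 regions, and Myo6 has 3 ISL1 regions, 5 H3K27ac regions and no H3K27me3 region.

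POU4F1 peaks were found at 22 genes in replicate 1 (47.4% of all genes; length-standardised count 23.8) and at 19 in replicate 2 (44%; 22.0). The positions differed between the libraries: 27 genes had a peak of either one, but a region with peaks of both was present at 3 genes, against 1.92% of all genes and a length-standardised count of 1.16. These were Pcdh15 (chr10:73945789-73946567), Eps8, which encodes an actin regulator at the tips of stereocilia (chr6:137613504-137614100), and Kcnq1, a potassium channel of the stria vascularis (chr7:143386660-143387648). None lay at a start (0.475% of all genes had one there), and none overlapped a replicated ISL1 region. With the peaks limited to the 8000 best of each library, no gene kept such a region. By number of POU4F1 peaks in the 2 libraries, Pcdh15 led with 18 and 20, followed by Adgrv1, a very large adhesion receptor of the hair bundle base (8 and 10), Cdh23 (1 and 9) and Kcnq1 (3 and 5); Myo6 and Loxhd1 had the same sum as Kcnq1.

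A replicated ISL1 region that overlapped a POU4F1 peak of either library was present at 5 genes, against 10% of all genes and a length-standardised count of 6.2. They were Esrrb (replicate 2) and Grxcr1, Myo6, Otoa and Otof (replicate 1). Grxcr1, a glutaredoxin-like protein of stereocilia, had the 1 such region with all 4 ISL1 libraries: at chr5:68093153-68094196, inside the gene and 61.3 kb from its start, lay peaks of all 4 ISL1 libraries, of POU4F1 replicate 1 and of H3K27ac replicates 2 and 3. At Otof, the calcium sensor of the hair cell synapse, the region covered 2.17 kb at an end of the gene. The strand of Otof was not available, so whether that end is the start is not known here. At Otoa, a protein that attaches matrix to the epithelium, the region lay 1.73 kb from the start. The strongest single POU4F1 peak of Myo6 (chr9:80218610-80219290, 97.7-fold over background by the authors' peak caller) overlapped a peak of ISL1_70 replicate 1 that was not replicated.

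In the lists as deposited, replicated H3K27me3 was present at more of the deafness genes than their lengths give, and replicated H3K27ac at about as many. H3K27ac replicate 1 by itself was below, as were all 3 H3K27ac libraries at lists of equal length (given below). Replicated H3K27me3 lay in the windows of 23 of the 36 genes, against 31.1% of all genes and a length-standardised count of 14. By library, H3K27me3 replicate 1 had a peak at 22 genes (49.9% of all genes; 22.3), replicate 2 at 22 (30.5%; 13.7) and replicate 3 at 30 (47.6%; 20.1). Replicates 2 and 3 were above the length-standardised count, and replicate 1, whose peaks lie near the threshold, was not. The count of 23 became 14 without replicate 2 (17.1% of all genes), 12 without replicate 3 (15.4%) and 22 without replicate 1. Replicated H3K27ac lay in 27 windows (65% of all genes; 28.2), with 9 genes in replicate 1 (37.8%; 16.8), 33 in replicate 2 (73.3%; 31.2) and all 36 in replicate 3 (82.2%; 33.6). That count rests on replicates 2 and 3: it was 4 without replicate 2 (29.5% of all genes) and 4 without replicate 3 (30.5%). For H3K4me3, replicate 1 had a peak at 24 genes (33.1%; 14.7) and replicate 2 at 23 (60.4%; 26.7), and 5 genes had a region of both (11.1%; 5.5).

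**Figure D3:**
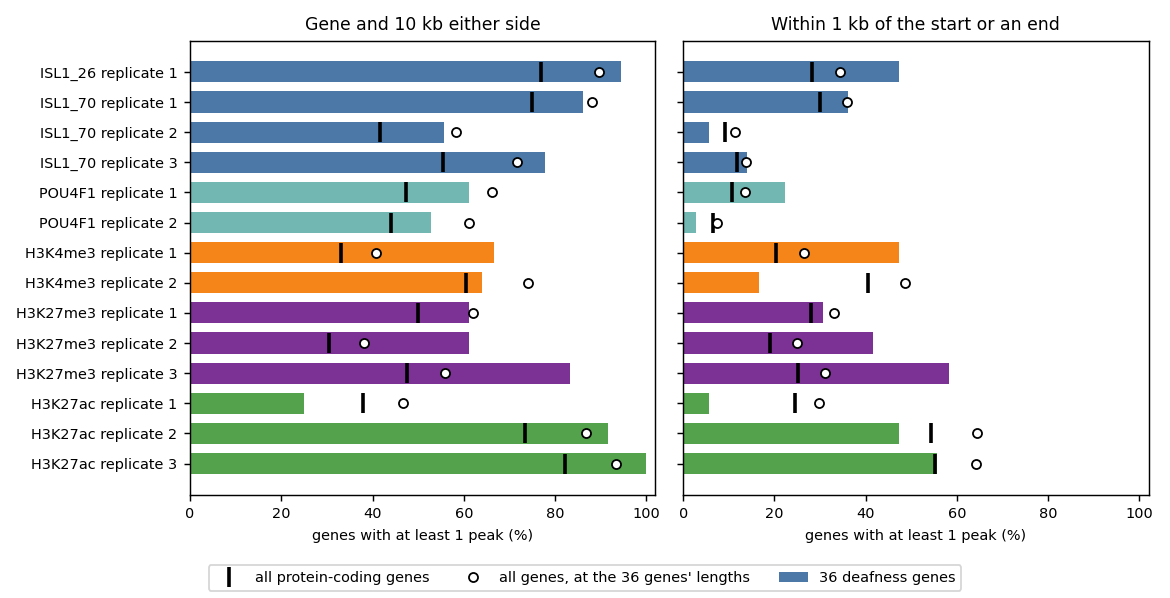
Share of genes with at least 1 peak in each library, in the window (left) and within 1 kb of the start or an end (right); bars are the 36 deafness genes, black ticks all 21887 protein-coding genes, and open circles all genes at the lengths of the 36. At the start, H3K4me3 replicate 2 marks 6 of 36 genes against 40.5% of all genes, and H3K27me3 replicate 3 marks 21 of 36 against 25.2%.

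At the gene starts, H3K4me3 replicate 2 and all 3 H3K27ac libraries marked fewer deafness genes than gene length gives, and H3K27me3 replicates 2 and 3 marked more. A peak of H3K4me3 replicate 2 lay within 1 kb of the start of 6 genes, against 40.5% of all genes and a length-standardised count of 17.5: Clrn1, Grhl2, Kcne1, Myo6, Triobp and Whrn. Another 17 genes had such a peak in the window and none at the start, and 1 of these 17 had it at the start of a neighbouring gene. H3K4me3 replicate 1 marked 17 starts (20.4% of all genes, length-standardised count 9.56). A merged region of both libraries reached 4 (7.39% of all genes, length-standardised count 3.86), those of Ush1g, Whrn, Kcne1 and Grhl2. At Ush1g the peak of replicate 2 in that region lay away from the ends of the gene. H3K27ac replicate 1 marked 2 starts (24.6% of all genes; 10.7), replicate 2 marked 17 (54.3%; 23.2) and replicate 3 marked 20 (55.2%; 23.1). H3K27me3 replicate 1 marked 11 (27.9%; 11.9), replicate 2 marked 15 (19%; 8.95) and replicate 3 marked 21 (25.2%; 11.2).

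Replicated H3K27me3 was at the start of 15 genes, against 19.6% of all genes and a length-standardised count of 9.18, and replicated H3K27ac at the start of 13, against 46.8% and 20.2. Without H3K27me3 replicate 2 or replicate 3 the count of 15 became 9 (10.4% and 9.77% of all genes), and without H3K27ac replicate 2 or replicate 3 the count of 13 became 1 (21.4% and 22.6%). H3K27me3 without H3K27ac was found at 12 starts (12.5% of all genes; 5.29), H3K27ac without H3K27me3 at 10 (39.7%; 16.3), both at 3 (7.11%; 3.88) and neither at 11 (40.7%; 10.5). No start or strand was available for 8 genes (Kcnq1, Otof, Eps8, Loxhd1, Ush1g, Grhl2, Kcne1 and Ptprq), for which a mark at either end was counted. Over the other 28, the counts in the same order were 10, 8, 1 and 9, beside 11.8%, 40.4%, 6.45% and 41.3% of 17492 genes. H3K4me3 replicate 2 marked 4 of these 28 starts, beside 41.1%. For these 28, only the annotated starts were tested. Those of Pcdh15 and Tmc1 lie inside the gene, so the outer 5′ end of either was not tested, and both were classed as neither. Peaks of H3K27me3 replicates 2 and 3 lay near that end of Pcdh15. A peak of H3K27ac replicate 2 (chr19:21036287-21037217) lay at that end of Tmc1.

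The lists differ in length, so the counts were repeated on the 8000 best peaks of each library. In the window, ISL1 then reached 13 genes in ISL1_26 replicate 1 (17.1% of all genes; length-standardised count 10.4) and 11, 12 and 12 genes in ISL1_70 replicates 1, 2 and 3 (20.7%, 19.2% and 18.2%; 11.8, 11.2 and 11.2). POU4F1 reached 10 and 13 genes (18.1% and 18.2%; 11.1 and 10.9). H3K27me3 reached 9, 19 and 19 genes in replicates 1, 2 and 3 (28%, 25.1% and 26.4%), that is 25.0%, 52.8% and 52.8% of the 36 beside length-standardised shares of 33.7%, 31.8% and 32.3%. H3K27ac reached 7, 7 and 11 genes (35.7%, 31.7% and 29.4%; 15.9, 14.4 and 13.5). H3K4me3 replicate 1 reached 20 genes (26.1%; 11.8) and replicate 2 reached 8 (40.6%; 17.5). At lists of equal length, all 3 H3K27ac libraries and H3K4me3 replicate 2 thus covered fewer of the deafness genes than their lengths give, and H3K27me3 replicates 2 and 3 covered more. At the start the best peaks of H3K27me3 marked 5, 15 and 14 genes (16.1%, 16.1% and 16.2% of all genes; length-standardised counts 6.99, 7.59 and 7.27). Those of H3K27ac marked 2, 2 and 4 (23.6%, 20.6% and 17.6%; 10.3, 9.17 and 7.81), and those of H3K4me3 marked 15 in replicate 1 (16.7%; 7.92) and 3 in replicate 2 (30.3%; 13.1).

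The peaks at the starts also differed in rank within their own lists. Ranks are percentiles by −log10 p, where a low value is a strong peak. Over the deafness genes with a peak at the start, the median rank in H3K27me3 replicate 2 was 7.83, against 21.1 over all genes with a start peak, and in replicate 3 it was 5.23 against 11.6; in replicate 1 both medians were 24.1. In H3K27ac replicates 2 and 3 the medians were 20.1 against 11.2 and 15.4 against 9.97, and in H3K4me3 replicate 2 the median was 35.6 against 18.9, while in the library labelled H3K4me3 replicate 1 it was 8.6 against 20.6. In H3K27ac replicate 1, with 2 such genes, it was 48.4 against 29.3. The deafness genes with H3K27me3 at the start thus held stronger peaks than the median gene with that mark in replicates 2 and 3, and those with H3K27ac or H3K4me3 replicate 2 weaker ones. H3K27me3 peaks at these starts had a median width of 4.21 kb against 2.49 kb in replicate 2 and 3.31 kb against 2.25 kb in replicate 3, but of 0.396 kb against 0.406 kb in replicate 1.

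**Figure D4:**
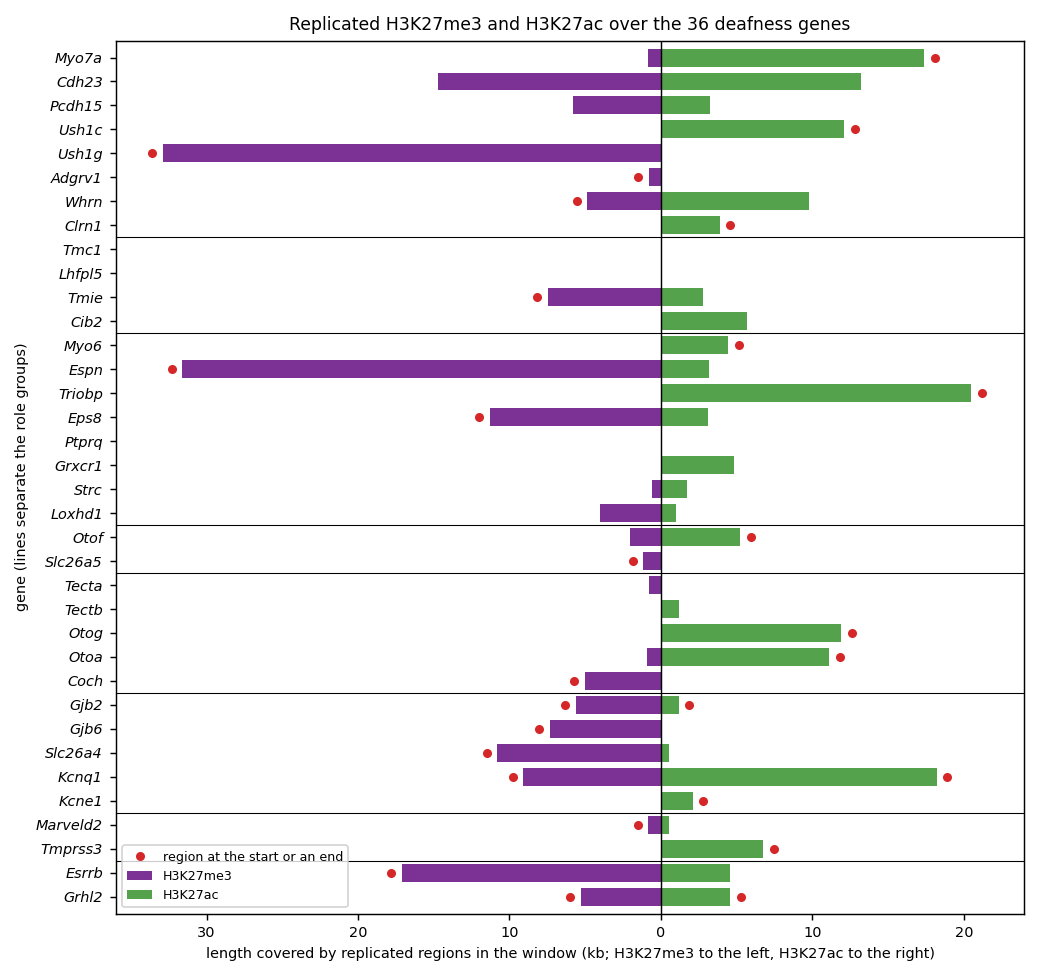
Length covered by replicated regions in the window of each deafness gene, in kb, with H3K27me3 drawn to the left and H3K27ac to the right; a red dot marks a region at the start or an end. Ush1g and Espn have the longest H3K27me3, 32.9 and 31.6 kb, Triobp and Kcnq1 the longest H3K27ac, 20.5 and 18.2 kb, and dots on both sides are seen at Gjb2, Kcnq1 and Grhl2.

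By role, replicated H3K27me3 was at the start of 3 of 8 hair bundle and Usher genes, 1 of 4 channel genes, 2 of 8 stereocilia genes, 1 of 2 synapse and motor genes, 1 of 5 matrix genes, 4 of 5 gap junction and transport genes, 1 of 2 junction and protease genes and both transcription factor genes, where the share over all genes was 19.6%. Replicated H3K27ac was at the start of 3, 0, 2, 1, 2, 3, 1 and 1 genes of these groups in the same order, where the share over all genes was 46.8%. The groups are small, and the H3K27me3 counts for channel, stereocilia and matrix genes are near the share over all genes. Gjb2 and Gjb6 encode connexin 26 and connexin 30, the gap junction proteins of cochlear supporting cells, and are neighbours on chromosome 14. Gjb2 lay under 1 region of 5.63 kb seen in all 3 H3K27me3 libraries, and peaks of replicates 1, 2 and 3 covered 4.08%, 18.9% and 21.3% of its window. H3K27ac replicates 2 and 3 had a region of 1.17 kb inside it. Gjb6 lay under a separate region of 7.32 kb, with H3K27ac replicate 3 alone. Slc26a4, which encodes pendrin, an anion exchanger of the endolymphatic sac, had 4 regions summing to 10.8 kb, and its best H3K27me3 peak in replicate 2 ranked at 0.141, among the strongest in that list. Kcnq1 had 6.93 kb of H3K27me3 at 1 end and 18 replicated H3K27ac regions summing to 18.2 kb, so that both marks met within 1 gene of 320 kb. Kcne1, the partner subunit of Kcnq1, had no replicated H3K27me3; its replicated H3K27ac lay at 1 end and H3K4me3 of both libraries at the other.

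Espn, which encodes an actin bundler of stereocilia, had 5 H3K27me3 regions summing to 31.6 kb. In H3K27me3 replicates 1, 2 and 3, peaks covered 10.4%, 52.1% and 62.2% of its window, and in H3K27ac replicates 1, 2 and 3 they covered 0.745%, 4.6% and 7.56%. Starts of Tnfrsf25 and Hes2 lie under or beside its outer regions. Ush1g, a scaffold of the Usher complex, had 32.9 kb in 6 regions, but its window also holds starts of Otop2, Otop3 and Hid1, so that not all of this length belongs to Ush1g. Coch, which encodes cochlin, a matrix protein of the spiral limbus and ligament, had 1 region of 5.01 kb over its start with a rank of 0.0407 in H3K27me3 replicate 3. Its single H3K27ac peaks in replicates 2 and 3 ranked at 48.5 and 86.9. Eps8, Tmie and Whrn, the last a scaffold of the stereocilia tips, had 11.3, 7.47 and 4.85 kb. At Adgrv1, Marveld2, a tricellular junction protein, and Slc26a5, the outer hair cell motor prestin, the mark was short: 0.789, 0.845 and 1.16 kb in all.

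Among the transcription factors, Grhl2, a regulator of epithelial junctions, had 5.28 kb of H3K27me3 seen in all 3 libraries, with peaks of H3K4me3 replicate 2 and of H3K27ac replicates 2 and 3 inside it. The library labelled H3K4me3 replicate 1 covered 5.02 kb of the same stretch. Peaks of 10 libraries lay at an end of Grhl2, more than at any other of the 36 genes; both ends of Grhl2 were counted, as its strand was not available. Esrrb had 6 H3K27me3 regions summing to 17.1 kb, over 12.1% of its window in replicate 3.

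H3K27ac without H3K27me3 at the start was found at genes of several roles. Triobp, which makes the rootlets of stereocilia and has broadly expressed isoforms, was the 1 gene with all 3 H3K27ac libraries at a start, at chr15:78947648-78948600. Its window held 1, 27 and 18 H3K27ac peaks in replicates 1, 2 and 3, and replicated regions summed to 20.5 kb. Myo7a, the motor of the upper tip link complex, had 11 replicated H3K27ac regions summing to 17.4 kb, from 0, 25 and 20 peaks, beside 0.832 kb of H3K27me3 inside the gene. Otoa had 8 regions and 11.1 kb, and Otog, a tectorial and otoconial membrane glycoprotein, 8 regions and 11.9 kb. Ush1c, the harmonin scaffold, had 7 regions and 12.1 kb. Ush1c and Otog lie beside each other on opposite strands and share 3 of these H3K27ac regions and 1 ISL1 region, so they are not separate observations. Tmprss3, a serine protease, had 4 H3K27ac regions over 6.77 kb and no other replicated mark. Clrn1, a small membrane protein of the hair bundle and synapse, had 1.69 kb of H3K27ac at its start.

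Marks inside a gene could differ from those at its start. Whrn had 9 replicated H3K27ac regions summing to 9.8 kb within a window whose start carried H3K27me3. Cdh23 had neither mark in 2 libraries at its start, yet 12 H3K27ac regions (13.2 kb) and 5 H3K27me3 regions (14.7 kb), the longest of them 7.58 kb and 6.04 kb from the start; 1 of the 5 lies at the start of Vsir, a gene inside Cdh23. Over all 36 windows, 4 of 135 replicated H3K27ac regions were seen in all 3 libraries, against 4606 of 39635 over all genes. They lay at Triobp, Kcnq1, Tmie and, at the start of its neighbour Ckmt1, in the window of Strc. Strc, which joins stereocilia to the tectorial membrane, and Tectb, a tectorin, had no peak of any library at their own starts. Tecta, the other tectorin, had 6 peaks of POU4F1 replicate 1 and none of replicate 2; its start peaks of H3K27ac replicates 2 and 3 did not overlap each other. Loxhd1, a stereocilia membrane protein, had 15 peaks of H3K27me3 replicate 3 against 3 and 1 in replicates 1 and 2.

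Promoter composition was compared with the marks for the 28 genes with an annotated start, taking the promoter with the most CpG where a gene has several. The median was 6.5 CpG in 250 bases, against 11 over 17492 genes. At starts with H3K27me3 only, the 10 deafness genes had a median of 12 CpG, close to 13 for all genes of that class. At starts with H3K27ac only, the 8 deafness genes had a median of 6.5, against 18 for 7074 genes of that class. Of these 8, Otog had 0, Otoa 3, Clrn1 4, Myo7a 6, Ush1c 7 and Tmprss3 9, all below the lower quartile of 12 for that class, while Myo6 had 18 and Triobp 26. At starts with neither mark the medians were 5 and 3.

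**Figure D5:**
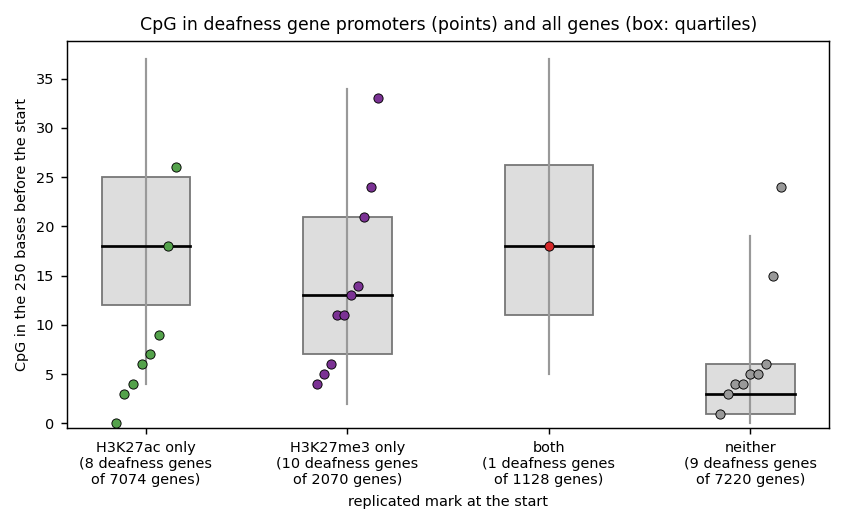
CpG count in the 250 bases before the start, by replicated mark at the start; points are deafness genes, and boxes, lines and whiskers give the quartiles, median and 5th to 95th percentile of all genes in the class. The points of the class with H3K27ac only sit mostly below the box, from 0 to 26, and those of the class with H3K27me3 only spread over it, from 4 to 33.

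Motifs were searched in the same 250 bases on both strands over all 36 annotated promoters of the 28 genes. CTAATG, a homeodomain motif often given for ISL1, was found in 4 (Adgrv1, Cdh23, Triobp and Ush1c), against 5.69% of 21263 promoters. CTAATT, of the same family, was found in 6, at Espn, Pcdh15, Tecta, Tectb and Tmc1, against 6.69%. TAATTAAT, a motif of the POU4F family which can overlap CTAATT by its shared letters, was found in 1, at Grxcr1, against 0.691%. CAGCTG, an E-box, was found in 5, at Espn, Esrrb, Lhfpl5 and Tmie, against 12.1%. These are matches of letters and not binding sites. Of the promoters with CTAATG or CTAATT, that of Pcdh15, where CTAATT occurs more than once, was overlapped by a replicated ISL1 region (ISL1_26 replicate 1 and ISL1_70 replicate 1), and the others were overlapped by no ISL1 peak.

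A second list of 36 deafness genes, drawn up with the same knowledge of earlier results and including Sox10, Pax3, Eya1 and Mitf, which act in neural crest or otic tissue, was described in the same way. Replicated ISL1 was in the window of 18 (38.0% of all genes), as for the 36 genes above, and replicated POU4F1 of 2 (1.92%). No length-standardised count was made for this list. Replicated H3K27me3 was at the start of 17 (19.6% of all genes), where the 36 genes above had 15, so this mark was not particular to them. Replicated H3K27ac was at the start of 17 (46.8%), where they had 13. H3K27me3 only was at 10 starts (12.5%), where they had 12. H3K27ac only was at 10 (39.7%), both marks at 7 (7.11%) and neither at 9 (40.7%). A peak of H3K4me3 replicate 2 was at the start of 13 (40.5% of all genes), where the count was 6 for the 36 genes described above.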

How the data were processed

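CUT&Tag peak lists of 14 libraries were analysed, 1 list per library, with no pooling of libraries. Per the peak names in the files, MACS2 called the peaks with a control; which control and which options is not stated in the sources at hand. FastQC, Bowtie2, SEACR and the build mm10 are listed in the submitters' processing notes without roles or versions. For each peak the deposited lists give the fold enrichment over background and the −log10 p and −log10 q as the authors' peak caller wrote them; these values were used to filter, rank and describe peaks within a list. No read counts were at hand, so the depth is unknown and no interval is given.

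Gene positions and promoter sequences came from RefSeq (GRCm38.p6): 21887 protein-coding genes, of which 17492, and 28 of the 36 deafness genes, have an annotated promoter. A gene window was the gene with 10 kb on each side. A start window was 1 kb on each side of each annotated start, or of either end for genes without a promoter. An annotated start can lie inside the gene, as at Pcdh15 and Tmc1. Overlapping peaks (by 1 base or more) of the libraries of 1 target were merged, and a region was called replicated with peaks of at least 2 libraries. Length-standardised counts used 20 bins of gene length with equal numbers of genes. The 36 genes, the role groups, the marker lists and the alternatives were chosen with earlier results of these data known.

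Genes described in detail were those with the most replicated ISL1 regions, those with replicated or the most POU4F1 peaks, those with H3K27me3 or H3K27ac at the start in the most libraries and over the greatest length, those with H3K4me3 replicate 2 at the start, those with no replicated region, and those with ISL1 and POU4F1 at 1 place. Other genes are described by role and were named with their values known. Alternatives changed the peak threshold, the number of libraries, the windows, the use of summits and the libraries included. Counting was tested on simulated data. Python 3.11.15, numpy 2.4.6, pandas 2.3.3 and matplotlib 3.10.9 were used.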

Additional observations from a re-analysis of the deposited data

How the results depend on the processing

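The percentages give the share of all genes under the same setting. No paired analysis was possible because the results come from no test. Of 81 alternative values for the counts of replicated regions and marked starts, 46 stayed within 1.5 times the count given in the report and 35 did not. With the 8000 best peaks of each library, the number of the 36 genes with a replicated region in the window was 7 for ISL1 (9.16%), 0 for POU4F1 (0.178%), 2 for H3K4me3 (4.93%) and 5 for H3K27ac (28.2%), and at the start 2 for H3K4me3 (3.34%) and 1 for H3K27ac (19.3%). With a peak in at least 1 library, the window counts were 36 for ISL1 (92.8%), 27 for POU4F1 (66.0%) and 32 for H3K4me3 (71.4%), and the start counts 20 for H3K4me3 (53.8%), 25 for H3K27me3 (43.9%) and 23 for H3K27ac (64.5%). With a region required in every library, the window counts were 2 for ISL1 (4.2%), 12 for H3K27me3 (15.6%) and 4 for H3K27ac (28.7%), and the start counts 9 for H3K27me3 (10.1%) and 1 for H3K27ac (21.2%). With 50 kb on each side, the window counts were 29 for ISL1 (62.1%) and 8 for H3K4me3 (20.1%). Over genes with a RefSeq promoter only, an alternative chosen after seeing the data, H3K4me3 of both libraries was at 1 start (6.82%). Leaving out each library in turn gave window counts from 11 to 15 for ISL1 (19.9% to 33.5%), 12 to 22 for H3K27me3 (15.4% to 29.8%) and 4 to 27 for H3K27ac (29.5% to 63.5%), and start counts from 9 to 15 for H3K27me3 (9.77% to 18.7%) and 1 to 13 for H3K27ac (21.4% to 44.2%). For POU4F1 and H3K4me3, 1 library then remains. The window count of POU4F1 was 19 without replicate 1 (44.0%) and 22 without replicate 2 (47.4%). That of H3K4me3 was 23 without replicate 1 (60.4%) and 24 without replicate 2 (33.1%). The start count of H3K4me3 was 6 without replicate 1 (40.5%) and 17 without replicate 2 (20.4%). The cause of these shifts was not tested, other than that fewer or more peaks enter each count by construction. The number of peaks per list, from 8855 to 168144, limits each comparison between libraries, since the depth behind it is unknown.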
